A study of Mus musculus with 84 samples.

Results

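The RNA of reprogramming cells with a knockdown of Ythdf2 was set directly against that of cells with a knockdown of Ythdf3 at day 5, over 4 of the 84 samples of the series. These 4 libraries were chosen by their labels alone, as the sequenced poly(A) RNA of the shYthdf2 and shYthdf3 arms on that day, with 2 libraries per arm. Both arms began as mouse embryonic fibroblasts (MEFs) that received retroviruses for Oct4, Sox2 and Klf4 and a retrovirus carrying a short hairpin RNA and puromycin resistance. Infected cells were selected with puromycin around day 0, when the virus was taken off and the cells were moved to iCD1 medium. The arms therefore share the 3 factors, the selection and the medium, and differ in the target of the hairpin. The luciferase hairpin arm (shLuc, 2 libraries at day 5) received the same factors and is given as a reference level outside the comparison. The labels do not say how many hairpins were used against each gene or whether libraries numbered 1 and 2 were separate infections. The p-values use 1 spread per gene, pooled within the 12 arms and days of the 24 time course libraries, so they measure the spread between libraries of a group, which may be technical.

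YTHDF2 and YTHDF3 are cytoplasmic proteins of the YTH family that bind N6-methyladenosine (m6A) in messenger RNA. YTHDF2 is best known for recruiting the CCR4-NOT deadenylase, which shortens the poly(A) tail and starts decay, while YTHDF3 has been tied to both translation and decay, and how far the family members can replace each other is debated. In reprogramming, fibroblasts lose matrix and mesenchymal genes and gain epithelial and then pluripotency genes.

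Levels are TPM, a measure of relative transcript abundance in which each library sums to the same total, so that read depth is unknown. Log2 differences are shYthdf2 minus shYthdf3 on the log2(TPM + 1) scale, with their standard error (SE), so a positive value is higher in shYthdf2. This scale understates differences of genes near 0. Adjusted p-values are from limma with Benjamini-Hochberg adjustment over 21244 genes.

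The 4 libraries differed in more than the hairpin. The libraries numbered 1 listed 15580 genes at 1 TPM or more in shYthdf2 and 16380 in shYthdf3, against 14053 and 14843 in those numbered 2. Mitochondrial transcripts took 6.80% and 6.42% of TPM in the libraries numbered 1 and 12.9% and 9.57% in those numbered 2. The correlation over genes was 0.914 between the shYthdf2 libraries and 0.907 between the shYthdf3 libraries, no higher than the 0.914 and 0.936 between libraries of the same number in different arms. Rows for external RNA spike-ins took 0.652% and 0.911% of TPM in shYthdf2, 1.43% and 1.22% in shYthdf3, and 0.693% and 0.929% in shLuc. Both shYthdf3 libraries thus lay above the other 4 libraries of that day. The amount of spike-in added per library is not given in the sources used here, and whether the arms differed in RNA per cell, in cell number or in the amount added was not tested. Scaling each library to its spike-ins moved the median log2 difference over all genes from -0.05 to 0.43, and directions below are relative to TPM as deposited unless stated.

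**Figure D1:**
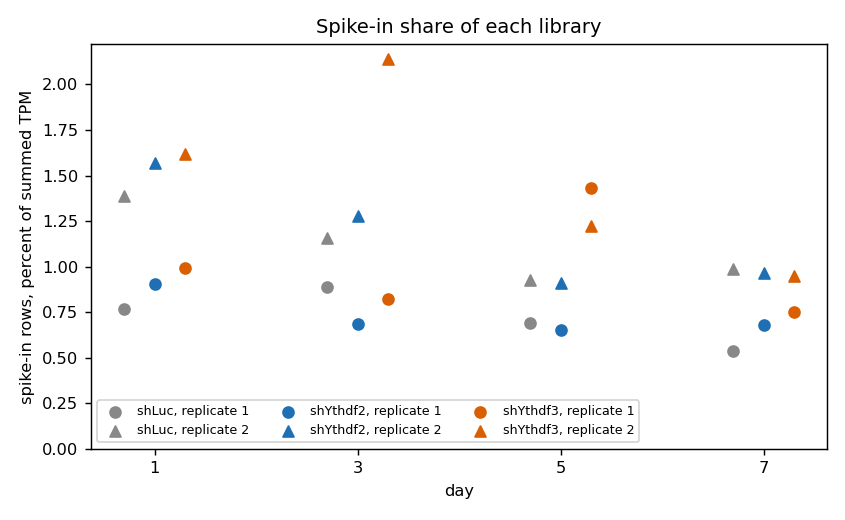
Percent of summed TPM in spike-in rows (y axis) for each of the 24 time course libraries by day (x axis), colored by arm, with circles for replicate 1 and triangles for replicate 2. At day 5 the shYthdf3 libraries, at 1.43% and 1.22%, lie above the shYthdf2 and shLuc libraries, while at day 7 the arms overlap.

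Each target was lower in its own arm. Ythdf2 stood at 18.4 and 8.41 TPM in the shYthdf2 libraries and at 34.01 and 38.3 TPM in the shYthdf3 libraries. Ythdf3 stood at 36.8 and 37.4 TPM in shYthdf2 and at 13.2 and 11.5 TPM in shYthdf3. The log2 difference was -1.46 ± 0.53 (SE) for Ythdf2 and 1.52 ± 0.52 for Ythdf3, with adjusted p-values of 0.317 and 0.268. With replicate number as a block these became 0.0476 and 0.0484. In shLuc, Ythdf2 was at 61.9 and 36.8 TPM and Ythdf3 at 39.8 and 19.0 TPM, so the shLuc library numbered 2 had Ythdf3 close to the shYthdf3 level. The third paralog Ythdf1 ranged from 40.4 to 49.6 TPM over the 4 libraries, with a log2 difference of 0.20 ± 0.42 that was smaller than its error (adjusted p = 0.992).

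Of the 21244 genes tested, 117 (0.551%) differed between the arms, 42 higher in shYthdf2 (0.198%) and 75 higher in shYthdf3 (0.353%). The libraries of the arms did not overlap for any of the 117. Calling with 2 libraries per arm favors such genes, and the share over all genes was not counted. The genes higher in shYthdf2 were well expressed there, with a median of 61.5 TPM in the higher arm. Those higher in shYthdf3 had a median of 11.7 TPM in theirs, against 9.65 TPM over all genes tested. The lower arm was listed at 0 TPM in both libraries for 26 of the 75 genes higher in shYthdf3 and for 6 of the 42 higher in shYthdf2. Over all 21244 genes, at least 1 arm was so listed for 4621. Clone or gene-model names made up 23 of the 75 and 2 of the 42. With replicate number as a block, 464 genes (2.18%) passed, 171 higher in shYthdf2 (0.805%) and 293 higher in shYthdf3 (1.38%), and they included all 117. With spike-in scaling 3 genes passed (0.0139%), 2 higher in shYthdf2 and 1 higher in shYthdf3, and with spike-in scaling and the block together 649 passed, 601 and 48. The count was 32 without the shYthdf2 library numbered 1, 29 without that numbered 2, 40 without the shYthdf3 library numbered 1 and 60 without that numbered 2. A pseudocount of 0.1 gave 62. Fitted on the 4 day 5 libraries alone, without the spread of the other groups, 1 gene passed, and it was none of the 117. Of the 35 called genes followed below, 8 passed whichever of the 4 libraries was left out, and these were Nid2, Col1a2, Dcxr, Lix1, Akr1c21, Tmem232, Oit1 and Neat1.

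**Figure D2:**
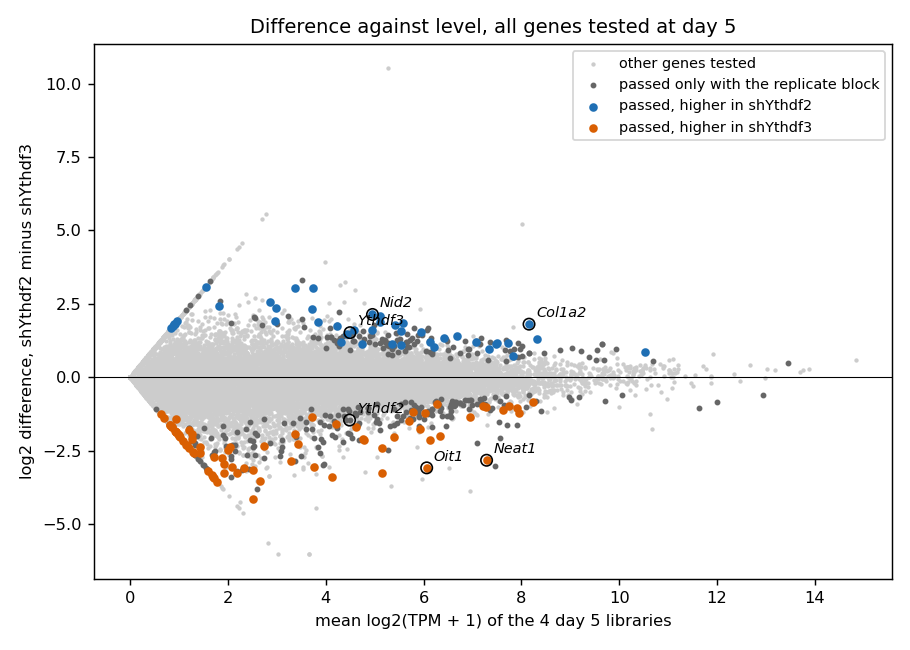
Log2 difference, shYthdf2 minus shYthdf3 (y axis), against the mean log2(TPM + 1) of the 4 day 5 libraries (x axis), one point per gene tested. The 42 genes higher in shYthdf2 (blue) sit mostly at middle and high levels, and many of the 75 higher in shYthdf3 (orange) lie on the edge where the other arm is at 0. Dark grey points passed only with the replicate block, and rings mark 6 named genes.

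The extracellular matrix genes Col1a2, Nid2 and Col6a1 were higher in shYthdf2. Col1a2, the alpha 2 chain of type I collagen, was at 481 and 589 TPM in shYthdf2 and at 142 and 161 TPM in shYthdf3, a log2 difference of 1.81 ± 0.23 (adjusted p = 0.00255). Nid2, a nidogen that links laminin and collagen IV in basement membranes, was at 58.7 and 69.8 TPM against 14.3 and 13.2 TPM, a log2 difference of 2.14 ± 0.23 (adjusted p = 0.000823). Col6a1, a chain of the beaded filament collagen VI, was at 424 and 593 TPM against 171 and 238 TPM, a log2 difference of 1.31 ± 0.26 (adjusted p = 0.0358). All 3 genes were separated by arm, with shLuc at 195 to 230 TPM for Col1a2, 31.1 to 34.4 TPM for Nid2 and 207 to 247 TPM for Col6a1. Col1a1, the partner chain of Col1a2 in the same collagen fibre, was at 82.5 and 139 TPM in shYthdf2 and at 135 and 240 TPM in shYthdf3, so that the arms overlapped while the shYthdf2 library was the lower one at each replicate number. Its log2 difference of -0.74 (adjusted p = 0.654, and 0.189 with replicate number as a block) became 0.03 with spike-in scaling. Of the 31 collagen and matrix genes tested, 2 were called higher in shYthdf2 and 0 higher in shYthdf3 by limma, with 4 and 3 at an unadjusted p under 0.05. Under the replicate block Col4a2 joined the former (301 and 409 against 157 and 202 TPM, adjusted p = 0.0137) and Timp1, an inhibitor of matrix proteases, the opposite side (86.5 and 127 against 170 and 226 TPM, adjusted p = 0.0364). Serpinh1, a collagen chaperone outside the list of 31, was called higher in shYthdf3 without the block. It was at 168 and 138 TPM in shYthdf2 and 319 and 284 TPM in shYthdf3 (log2 difference -0.98 ± 0.21, adjusted p = 0.0459). Serpinh1 was picked after its values were seen and is not among the 35 called genes followed. In bulk RNA, fewer cells of a type and less RNA per cell cannot be told apart.

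Lif, Foxj1 and Lix1 were among the 14 leading genes in the same direction. Lif, the cytokine that sustains mouse embryonic stem cells in culture, was at 16.8 and 17.0 TPM in shYthdf2 and at 2.63 and 2.35 TPM in shYthdf3 (log2 difference 2.36 ± 0.40, adjusted p = 0.0149). Foxj1, the transcription factor that drives formation of motile cilia, was at 34.5 and 24.2 TPM against 2.10 and 3.21 TPM (log2 difference 3.05 ± 0.54, adjusted p = 0.0169). Lix1 was at 32.9 and 42.0 TPM against 2.54 and 5.06 TPM (log2 difference 3.04 ± 0.40, adjusted p = 0.00269). For these genes shLuc was at 3.81 to 6.06, 2.71 to 5.69 and 13.4 to 19.3 TPM, nearest to shYthdf3 for the first pair and between the arms for Lix1. Spef1, which binds microtubules in the central apparatus of motile cilia, was at 20.8 and 13.2 against 4.29 and 0.66 TPM (adjusted p = 0.0459). Prok2, a secreted prokineticin, was at 9.07 and 6.20 TPM in shYthdf2 and listed at 0 in both shYthdf3 libraries (adjusted p = 0.0273). Celf5, an RNA-binding protein, was at 5.73 and 8.81 against 0.45 and 0.59 TPM (adjusted p = 0.0370).

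Prdx3, Glrx and Dcxr, which encode enzymes of reduction reactions, were higher in shYthdf2 too. No list of such enzymes was counted, and other oxidoreductases were called higher in shYthdf3. Among these were the aldo-keto reductase Akr1c21 (log2 difference -4.15 ± 0.50) and the retinol dehydrogenase Rdh16 (-3.17 ± 0.57). Prdx3, a peroxidase of mitochondria, was at 68.1 and 62.6 TPM in shYthdf2 and at 20.9 and 13.9 TPM in shYthdf3 (log2 difference 1.88 ± 0.26, adjusted p = 0.00400). Glrx, a glutaredoxin that reduces mixed disulfides, was at 26.3 and 26.6 against 8.41 and 4.98 TPM (adjusted p = 0.0158). Dcxr, a reductase of dicarbonyls and xylulose, was at 89.0 and 89.7 against 25.9 and 22.1 TPM (log2 difference 1.86 ± 0.22, adjusted p = 0.00164). The shLuc level of Prdx3, 56.1 to 58.5 TPM, was near that of shYthdf2. Slc7a2, a transporter of cationic amino acids, had a log2 difference of 2.31 ± 0.43 (adjusted p = 0.0238). Slc2a3, a glucose transporter, was at 43.1 and 39.2 against 11.4 and 14.04 TPM (adjusted p = 0.0149). Ero1l, an oxidase of the endoplasmic reticulum induced by hypoxia, was at 51.8 and 54.5 against 21.8 and 12.7 TPM (adjusted p = 0.0496). Psat1, an enzyme of serine synthesis, was at 120 and 92.9 against 51.5 and 49.6 TPM (adjusted p = 0.0225). Nmnat2, an enzyme of NAD synthesis known from axons, was at 12.4 and 16.0 against 2.55 and 3.50 TPM (adjusted p = 0.0169). Krt19, a keratin of simple epithelia, was at 75.3 and 65.3 against 13.0 and 18.9 TPM (log2 difference 2.09 ± 0.36, adjusted p = 0.0166) and was one of the 3 genes that also passed with spike-in scaling. Phlda3, a p53 target, was at 242 and 210 against 126 and 107 TPM (log2 difference 0.95 ± 0.20, adjusted p = 0.0406).

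The genes higher in shYthdf3 were led by genes that were close to 0 in the other arm. Akr1c21, an aldo-keto reductase of steroids, was at 25.1 and 21.3 TPM in shYthdf3 and at 0.84 and 0 TPM in shYthdf2, with 0.71 and 0 TPM in shLuc (log2 difference -4.15 ± 0.50, adjusted p = 0.00164). Tmem232 was at 10.3 and 9.46 TPM in shYthdf3 and listed at 0 in all 4 libraries of the other arms (adjusted p = 0.000255), and it also passed with spike-in scaling. Krtap13, a hair keratin-associated protein, was at 10.9 and 10.6 TPM in shYthdf3 and likewise listed at 0 elsewhere at day 5 (adjusted p = 0.00541). Uts2, the precursor of the vasoactive peptide urotensin, was at 5.75 and 4.38 TPM in shYthdf3 and listed at 0 in the other arms (adjusted p = 0.0169). Tmem232, Krtap13 and Uts2 were thus listed above 0 in the shYthdf3 arm alone at this day. Akr1c21, Krtap13 and Rdh16 belong to families with near-identical members, among which reads may be divided.

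Neat1 and Oit1 were well above 0 in all 3 arms. Neat1, the long noncoding RNA on which nuclear paraspeckles assemble, was at 492 and 350 TPM in shYthdf3, at 67.6 and 49.1 TPM in shYthdf2 and at 202 and 111 TPM in shLuc (log2 difference -2.83 ± 0.36, adjusted p = 0.00255). Oit1 was at 194 and 193 TPM in shYthdf3, at 23.6 and 20.4 TPM in shYthdf2 and at 71.2 and 60.5 TPM in shLuc (log2 difference -3.08 ± 0.42, adjusted p = 0.00277). For both genes shLuc lay between the knockdown arms. Hmga2, a chromatin protein of embryonic and mesenchymal cells that was picked here after its values were seen, was at 156 and 163 TPM in shYthdf3, 37.2 and 41.8 TPM in shYthdf2 and 91.0 and 109 TPM in shLuc (log2 difference -1.99 ± 0.30, adjusted p = 0.00606). Dnah8, a dynein heavy chain of axonemes, was at 44.3 and 32.7 TPM against 4.57 and 2.97 TPM in shYthdf2 (adjusted p = 0.0253), the opposite direction to the ciliary genes Foxj1 and Spef1. Grm2, a metabotropic glutamate receptor, was at 28.9 and 14.4 TPM against 0.47 and 1.34 TPM (log2 difference -3.53 ± 0.73, adjusted p = 0.0418). Ubd, a ubiquitin-like protein induced by interferon, was at 17.7 and 6.88 TPM against 1.12 and 0 TPM (adjusted p = 0.00847), and Batf2, an interferon-induced transcription factor, at 22.5 and 28.1 against 5.43 and 1.09 TPM (adjusted p = 0.0169). In shLuc both were near the shYthdf3 level, at 7.58 to 10.3 TPM for Ubd and 17.9 to 19.9 TPM for Batf2. Grm2 was listed at 0 and 0.58 TPM in shLuc. The further leading genes, all at 1.54 TPM or less in shYthdf2, were Myo3a, a myosin of hair-cell stereocilia, Abo, the blood-group glycosyltransferase, Rdh16, a retinol dehydrogenase, and Pcdhb12, a clustered protocadherin, with log2 differences from -3.27 to -2.75 and adjusted p-values from 0.0169 to 0.0400. Ski, a repressor of SMAD transcription in the TGF-beta pathway, was at 93.8 and 103 TPM in shYthdf3 against 43.2 and 39.9 TPM in shYthdf2 (log2 difference -1.22 ± 0.20, adjusted p = 0.00871).

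**Figure D3:**
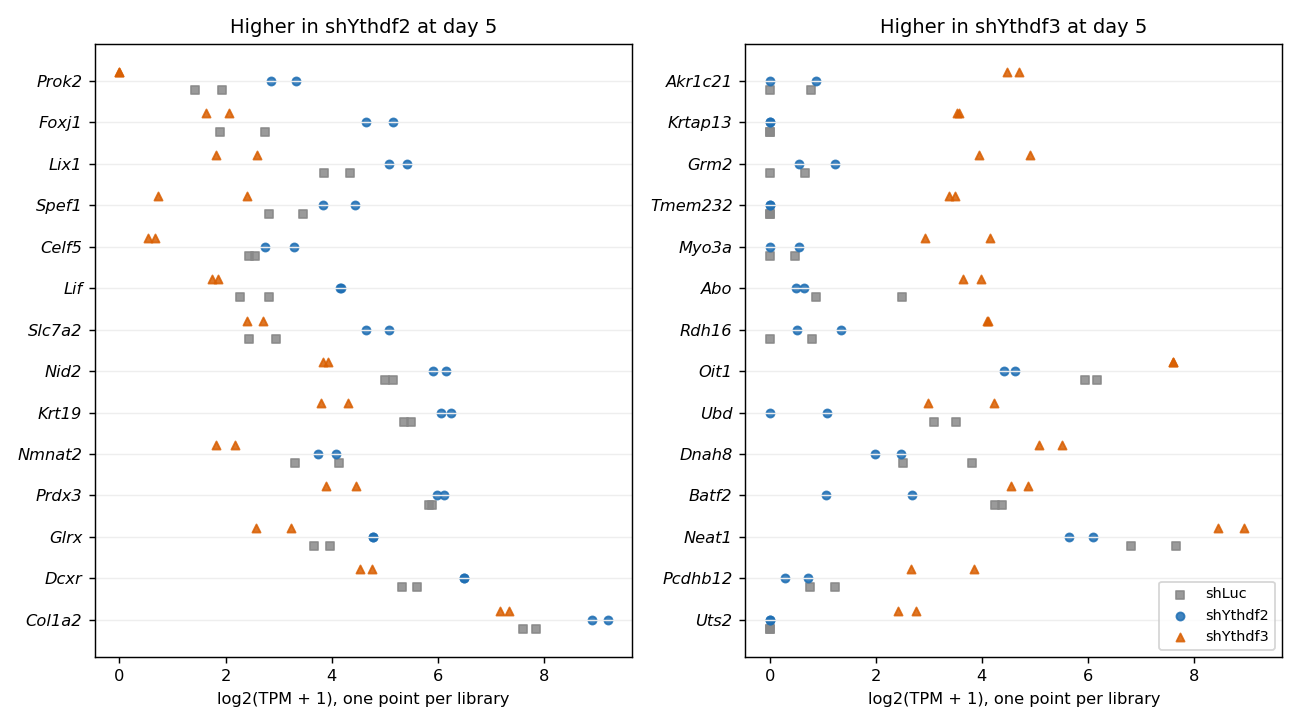
Log2(TPM + 1) at day 5 (x axis) of the 14 genes with the highest positive and the 14 with the lowest negative log2 differences under the rule for named genes (y axis), one point per library in shYthdf2, shYthdf3 and shLuc. The shYthdf2 and shYthdf3 points do not overlap for any of the 28 genes, which the rule requires. In the left panel shLuc lies mostly between the arms, and in the right panel it lies near shYthdf2 for genes such as Tmem232 and near shYthdf3 for Ubd and Batf2.

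Over the genes called, shLuc lay between the arms for 34 of the 42 genes higher in shYthdf2 and for 35 of the 75 higher in shYthdf3, against 30.5% of all genes tested. Calling favors genes with arms far apart, so these shares are a description. The shYthdf3 arm was the one farther from shLuc for 64 of the 75 genes higher in it, and for 24 of the 42 lower in it, against 49.7% of all genes.

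The other members of the pathways were then counted in lists, beside the median of -0.05 over all genes. At an unadjusted p under 0.05, 695 of all 21244 genes (3.27%) were higher in shYthdf2 and 1421 (6.69%) higher in shYthdf3, and the unadjusted counts below stand against these shares. Of the 5 YTH readers, 0 passed limma without the block, with 1 in each direction at an unadjusted p under 0.05, and Ythdf2 and Ythdf3 were the pair that passed with it. Of 16 m6A writers, erasers and related proteins 0 passed, with 1 and 3 at an unadjusted p under 0.05. Igf2bp2, a further m6A-binding protein, was at 48.1 and 58.1 TPM in shYthdf2 and 102 and 138 TPM in shYthdf3 (adjusted p = 0.0765, and 0.0320 with the block). Of 16 genes of the CCR4-NOT deadenylase and its adaptors 0 passed, with 1 in each direction at an unadjusted p under 0.05 and a median of -0.06. The widest difference in that list, -3.06 for the adaptor Btg3, came from a single library, since Btg3 was at 0 and 32.4 TPM in shYthdf2 and at 46.9 and 47.4 TPM in shYthdf3 (adjusted p = 0.374). Of 15 genes of PAN2-PAN3, decapping and poly(A) binding 0 passed, with 0 and 2 at an unadjusted p under 0.05, one of them the deadenylase Pan2 at 13.2 and 10.7 against 27.8 and 21.7 TPM (adjusted p = 0.212).

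TEAD factors, which bind DNA with the Hippo effector YAP, were one subject of the series. Tead2 was at 101 and 122 TPM in shYthdf2 and at 179 and 246 TPM in shYthdf3, with shLuc at 194 and 205 TPM. The log2 difference of -0.91 ± 0.25 had an adjusted p of 0.139, or 0.0149 with the block, and was -0.14 with spike-in scaling. With the block the Hippo kinase Lats1 (29.9 and 24.1 against 12.0 and 7.92 TPM, adjusted p = 0.0398) and the TEAD cofactor Vgll3 (44.2 and 67.7 against 24.1 and 26.0 TPM, adjusted p = 0.0271) were higher in shYthdf2. Of 18 TEAD factors and Hippo components 9 were higher in each arm, with a list median of -0.11. Without the block 0 passed, with 3 in each direction at an unadjusted p under 0.05, and with it 2 passed higher in shYthdf2 and 1 higher in shYthdf3. Of 22 YAP-TEAD targets 0 passed without the block, with 3 and 1 at an unadjusted p under 0.05, and 15 were higher in shYthdf2 with a list median of 0.34. The receptor kinase Axl passed with the block, at 92.5 and 101 against 54.8 and 49.9 TPM (adjusted p = 0.0346). Ctgf, a standard reporter of YAP activity, was at 227 and 242 against 178 and 111 TPM (adjusted p = 0.614).

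The TGF-beta response had the highest list median, 0.63, with 12 of 16 genes higher in shYthdf2. Only Ski, a repressor of the pathway, passed in that list without the block. With the block Inhba, the activin beta A subunit, passed in the other direction, at 7.23 and 8.25 TPM in shYthdf2 and 0 and 1.07 TPM in shYthdf3 (adjusted p = 0.0253, and 0.0602 without). The 34 cytosolic ribosomal protein genes had a median of 0.29, and 31 were higher in shYthdf2, with 0 passing in either fit and 0 at an unadjusted p under 0.05. Their summed level was 48520 and 47050 TPM in shYthdf2, 40580 and 39820 in shYthdf3, and 47650 and 50920 in shLuc. In 21 p53 targets and cell cycle inhibitors 1 passed, and with the block Cdkn1a, the inhibitor p21, was higher in shYthdf2 at 613 and 886 against 332 and 406 TPM (adjusted p = 0.00513), while the sestrin Sesn1 was lower at 14.6 and 6.39 against 29.9 and 21.8 TPM (adjusted p = 0.0385).

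Immune lists leaned the other way in TPM as deposited. MHC class I antigen presentation had a median of -0.74 with 12 of 15 genes higher in shYthdf3, interferon-inducible GTPases -0.65 with 11 of 14, and interferon-stimulated genes -0.52 with 22 of 28. By limma 0 genes passed in these lists, with 7, 1 and 8 at an unadjusted p under 0.05, all higher in shYthdf3, where 6.69% of all genes were. The 1 of 14 GTPases is near that share. Fitted with replicate number as a block, 1 passed in each, and these were B2m, the light chain of MHC class I, at 2607 and 3582 against 4702 and 6422 TPM (adjusted p = 0.0143), Iigp1, a GTPase of cell-autonomous immunity, at 43.5 and 25.1 against 122 and 91.3 TPM (adjusted p = 0.0490), and Oas2, a sensor of double-stranded RNA, at 179 and 204 against 340 and 430 TPM (adjusted p = 0.0164). The classical class I gene H2-K1 was at 822 and 628 TPM in shYthdf2, 1365 and 1531 TPM in shYthdf3 and 2490 and 2339 TPM in shLuc, so that both knockdown arms were below shLuc (adjusted p = 0.152 between them). The MHC class I list summed to 5374 and 5531 TPM in shYthdf2, 8416 and 10140 in shYthdf3 and 12180 and 13570 in shLuc. In the same order the GTPases summed to 1835 and 1164, 2307 and 1779, and 5426 and 3953 TPM. Both knockdown arms were thus below shLuc in these lists. Interferon-stimulated genes summed to 4013 and 3310, 4770 and 4902, and 5479 and 4312 TPM, so that shYthdf3 and shLuc overlapped. With spike-in scaling the 3 medians became 0.04, 0.08 and 0.25, below the 0.43 of all genes and no longer negative. On the neighboring days, in TPM as deposited, they were -0.61, -0.43 and -0.50 at day 3 and -0.09, 0.04 and -0.19 at day 7, where the median of all genes was 0 on both days.

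Immediate early genes had a median of -0.59, with 15 of 18 higher in shYthdf3, 0 passing limma and 0 and 3 at an unadjusted p under 0.05. Their median was 0.19 with spike-in scaling. Junb, an AP-1 subunit, was at 243 and 206 TPM in shYthdf2 and 621 and 403 TPM in shYthdf3 (adjusted p = 0.0816, and 0.0319 with the block). Of 19 inflammatory genes 0 passed without the block, with 3 in each direction at an unadjusted p under 0.05. With it Il1rn, the interleukin 1 receptor antagonist, was higher in shYthdf3 (69.2 and 25.8 against 5.81 and 3.46 TPM, adjusted p = 0.0274) and the chemokine Ccl7 was higher in shYthdf2 (155 and 267 against 82.0 and 90.2 TPM, adjusted p = 0.00262). Among further genes that passed with the block alone, Ccne1, the cyclin of S-phase entry, Mthfd2, of mitochondrial folate metabolism, Egln3, a prolyl hydroxylase of HIF, Uqcrc2, of respiratory complex III, and Jup, a junction protein of epithelia, were higher in shYthdf2, with log2 differences from 0.68 to 1.80. Kdm3a, a histone demethylase induced by hypoxia, was lower in shYthdf2, with a log2 difference of -0.99. With the block, 1 of 22 DNA replication genes, 2 of 20 of the ATF4 response and serine synthesis, 1 of 24 of oxidative phosphorylation and 2 of 27 epithelial genes passed. All of these were higher in shYthdf2. Of 21 hypoxia-inducible genes outside glycolysis, 2 passed higher in shYthdf2 and 1 higher in shYthdf3, with a list median of 0. Over all genes 0.805% and 1.38% passed with the block.

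**Figure D4:**
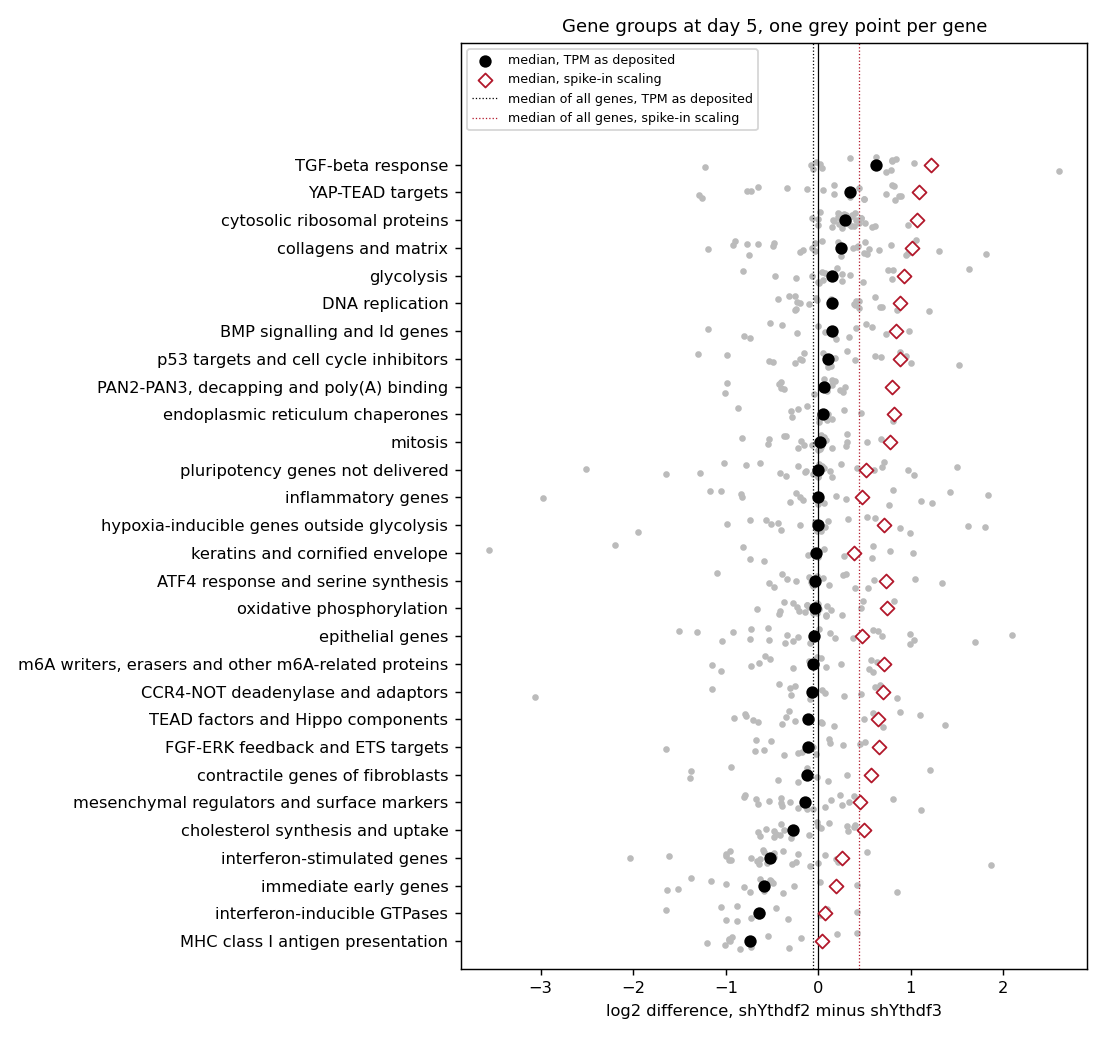
Log2 difference, shYthdf2 minus shYthdf3 (x axis), of each tested gene (grey) in 29 gene groups of at least 10 genes (y axis), with the group median in TPM as deposited (black) and with spike-in scaling (red diamonds). Dotted lines mark the median of all genes in each scale, -0.05 and 0.43. Black medians run from -0.74 for MHC class I to 0.63 for the TGF-beta response, and all red medians shown are above 0.

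The delivered factors and markers of the state of the cells were compared between the arms as well. Pou5f1, the Oct4 gene, was at 2407 and 2044 TPM in shYthdf2, 5172 and 3973 TPM in shYthdf3 and 2624 and 2344 TPM in shLuc (adjusted p = 0.327, and 0.0195 with the block). Klf4 was at 1813 and 1337 against 2953 and 2324 TPM (adjusted p = 0.720), and Sox2 at 883 and 1221 against 1415 and 1790 TPM (adjusted p = 0.524). The TPM of the 3 factors joins viral and endogenous transcripts. Their log2 differences were -1.03, -0.75 and -0.62, and with spike-in scaling -0.25, 0.03 and 0.16, so that those of Klf4 and Sox2 changed sign. The part of the factor levels in the differences of other genes was not tested. Among pluripotency genes, Nanog was between 1.25 and 4.76 TPM and Zfp42 between 5.63 and 20.8 TPM over the 4 libraries. The 27 tested pluripotency genes that were not delivered summed to 513.4 and 428.4 TPM in shYthdf2 and 622.5 and 593.1 TPM in shYthdf3. The fibroblast marker Thy1, between 4.98 and 33.4 TPM, and the epithelial cadherin Cdh1, between 20.6 and 46.6 TPM, overlapped between the arms. Col1a2, a further fibroblast marker, was called higher in shYthdf2 and Col1a1 was not called, as given above. Of 27 epithelial genes 1 passed, Krt19, with 13 higher in shYthdf2, 14 higher in shYthdf3 and a median of -0.05. Of 21 mesenchymal regulators and surface markers 0 passed, with 1 and 2 at an unadjusted p under 0.05 and a median of -0.14. Of 27 pluripotency genes that were not delivered, 0 passed limma, with 1 and 2 at an unadjusted p under 0.05. Macrophage markers summed to 17.8 and 44.4 TPM in shYthdf2 and 16.1 and 34.6 TPM in shYthdf3, and endothelial markers to 72.9 and 81.3 against 64.1 and 49.8 TPM.

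The same contrast was also measured on the other days. Their libraries shared the fit that called the 117 genes and so entered the filter and the spread, while their own differences between the arms were not used in the choice. At day 3 the genes higher in shYthdf2 at day 5 had a median log2 difference of 1.41, with 38 of 42 positive and 0 negative, and those higher in shYthdf3 a median of -1.16, with 60 of 75 negative and 4 positive. The median over all genes at day 3 was 0. Of the 117 genes 52 passed at day 3, all in the day 5 direction, where 0.480% of all genes passed. At day 7 the medians were 0.91 and -0.93, with 37 of 42 positive and 62 of 75 negative, and 14 genes passed, all in the day 5 direction, where 0.118% of all genes passed. At day 1 the medians were 1.05 and -0.20, and 17 passed, all in the day 5 direction, where 0.249% of all genes passed.

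Single genes followed different courses. Nid2 passed on every day, with log2 differences of 2.52 at day 1, 2.26 at day 3, 2.14 at day 5 and 1.54 at day 7 and adjusted p-values on the other days of 0.000171, 0.000538 and 0.00934. Akr1c21 had -0.50 at day 1, -2.65 at day 3, -4.15 at day 5 and -4.41 at day 7, with adjusted p-values of 0.848, 0.0262 and 0.00123 on the other days. Col1a2, Lix1, Dcxr, Neat1, Oit1, Tmem232 and Hmga2 also passed at days 3 and 7 in the same direction, and none of these 7 passed at day 1. Uts2 had log2 differences of 0 at days 1 and 7 and 0.01 at day 3. Whether a gene's difference changed between days was tested by an interaction term. No gene passed for day 5 against day 3 (563 at an unadjusted p under 0.05), and 1 gene (0.00471%) passed for day 5 against day 7 (519 at an unadjusted p under 0.05), which was Gm16572 and not one of the 117. The courses of Akr1c21 and Uts2 are thus not shown to differ between these days.

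**Figure D5:**
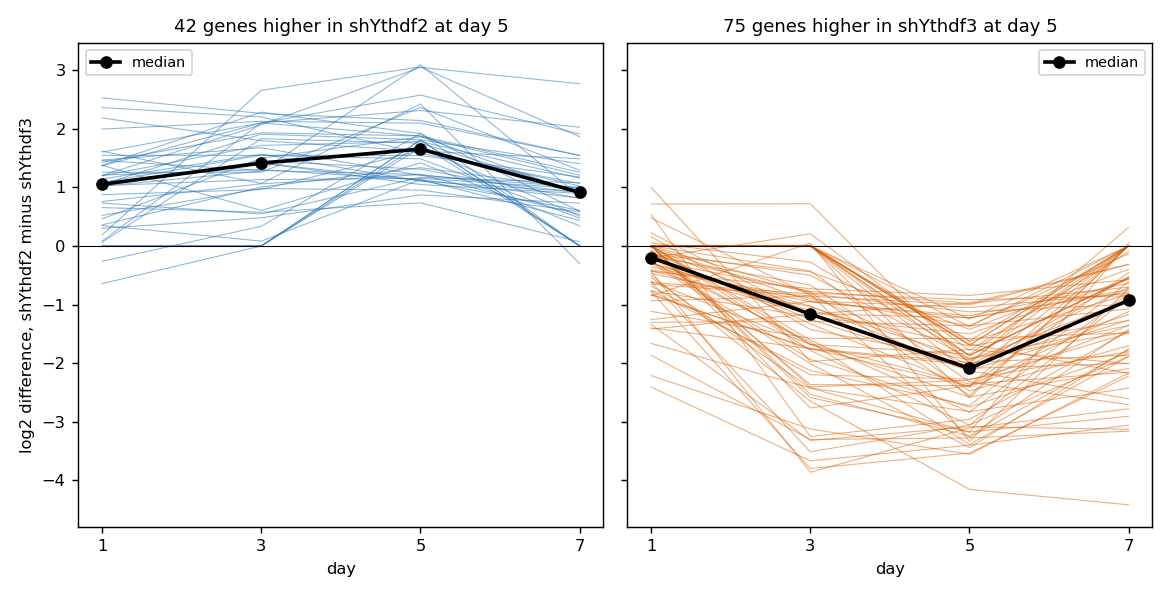
Log2 difference, shYthdf2 minus shYthdf3 (y axis), at days 1, 3, 5 and 7 (x axis) for the 42 genes called higher in shYthdf2 (left) and the 75 called higher in shYthdf3 (right) at day 5, with one thin line per gene and the median in black. The medians are farthest from 0 at day 5, the day that chose the genes, and are 0.91 and -0.93 at day 7.

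Other cells of the series carried hairpins against the same 2 genes, and part of the called genes could be tested there. In embryonic stem cells the 35 genes higher in shYthdf2 at day 5 had a median log2 difference of 0.22 and the 38 higher in shYthdf3 a median of -0.13, and 6 passed, all in the day 5 direction (0.879% of all genes passed there). In induced pluripotent stem cells the medians of these 35 and 38 genes were 0.30 and -0.015, and 7 passed, all in the day 5 direction (1.94% of all genes). In MEFs the medians were 0.27 and 0, and 8 passed, all in the day 5 direction (0.979% of all genes). In the day 1 cultures given DMSO, the solvent control of the actinomycin D series, 37 and 40 genes had medians of 0.43 and -0.18, and 12 passed, 11 of them in the day 5 direction (1.72% of all genes). These medians are closer to 0 than those of day 5, at which the genes were chosen.

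Accessible chromatin at day 5 was given as 1 peak list per arm, so no test was made, and the lists give positions with no height. The shYthdf2 list held 55577 peaks over 16021172 bases and the shYthdf3 list 43725 peaks over 12151370 bases. Of the shYthdf2 peaks 62.9% overlapped a shYthdf3 peak, and of the shYthdf3 peaks 80.2% overlapped a shYthdf2 peak. The depth of the 2 libraries is unknown, and its part in the numbers of peaks was not tested.

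Of the 28 leading genes, Foxj1, Slc7a2, Nid2, Krt19, Abo, Batf2, Neat1 and Pcdhb12 had no promoter entry and were not examined. Promoter sequences are shown for Lix1, Nmnat2 and Grm2, the genes among the rest whose promoter entry overlapped a peak in one day 5 list and not in the other, and for Hmga2, where both lists had one. Each is the 250 bases before the RefSeq start on build GRCm38.p6, 5′ to 3′ on the gene's strand, with the GC box (GGGCGG or CCGCCC) in capitals.
Lix1: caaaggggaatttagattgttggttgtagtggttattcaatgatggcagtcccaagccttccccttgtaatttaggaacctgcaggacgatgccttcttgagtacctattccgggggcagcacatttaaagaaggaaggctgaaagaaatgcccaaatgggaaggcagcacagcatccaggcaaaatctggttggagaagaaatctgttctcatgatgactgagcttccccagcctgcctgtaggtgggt
Nmnat2: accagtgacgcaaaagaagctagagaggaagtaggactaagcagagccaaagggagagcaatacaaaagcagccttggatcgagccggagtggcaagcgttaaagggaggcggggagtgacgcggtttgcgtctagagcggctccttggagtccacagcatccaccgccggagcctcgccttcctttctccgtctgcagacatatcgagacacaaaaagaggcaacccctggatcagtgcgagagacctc
Grm2: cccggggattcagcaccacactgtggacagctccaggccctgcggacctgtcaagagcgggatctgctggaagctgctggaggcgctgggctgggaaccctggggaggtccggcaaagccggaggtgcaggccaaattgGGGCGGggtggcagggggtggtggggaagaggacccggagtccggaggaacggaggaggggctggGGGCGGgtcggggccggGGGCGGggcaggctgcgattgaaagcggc
Hmga2: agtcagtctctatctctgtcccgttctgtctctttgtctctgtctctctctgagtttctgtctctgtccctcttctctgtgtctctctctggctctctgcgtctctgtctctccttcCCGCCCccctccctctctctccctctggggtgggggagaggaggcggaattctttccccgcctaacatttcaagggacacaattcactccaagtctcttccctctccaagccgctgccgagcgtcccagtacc
The Lix1 window is chr17:17402436-17402685 on the plus strand, that of Nmnat2 chr1:152954851-152955100 on the plus strand, that of Grm2 chr9:106656110-106656359 on the minus strand and that of Hmga2 chr10:120476470-120476719 on the minus strand. The GC box occurred 3 times in Grm2, 1 time in Hmga2 and in neither of the others, and 32.7% of 32851 promoter windows of this length hold one. The TEAD motif, searched as GGAATG or CATTCC, was in none of the 4 windows and in 12.6% of all.

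At Lix1 the shYthdf2 list had a peak at chr17:17402621-17402846 at day 5, centred 47 bases after the start, and the shYthdf3 list had none in the window at day 3 or day 5 and 1 at day 7. At Nmnat2 the shYthdf2 list had a peak on all 3 days examined, days 3, 5 and 7, and the shYthdf3 list had one at days 3 and 7. The Lix1 and Nmnat2 peaks of day 5 were thus in the list of the arm with more RNA. That list was also the longer one, and the share of all promoters with a peak in a single list was not counted. At Grm2 the day 5 peak, chr9:106656304-106656517, was in the shYthdf2 list, the arm with less Grm2 RNA, while the shYthdf3 list had one at days 3 and 7. At Hmga2 the day 5 peak was 478 bases wide in the shYthdf2 list and 172 bases wide in the shYthdf3 list, the arm with more Hmga2 RNA. The day 5 lists of shLuc held a peak in all 4 windows.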

How the data were processed

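Poly(A) RNA was measured in 24 time course libraries (12 groups of 2). The deposited table holds TPM per gene, made by the authors; per the submitters' processing notes the build was mm10 and the tools named are RSEM, Bowtie2, SAMtools, MACS2 and deepTools, without versions. The authors' peak lists, as deposited, hold coordinates alone. Depth per library is unknown. Of 50692 rows, 92 spike-in rows were left out of tests. Genes at 1 TPM or more in at least 2 libraries were fitted as log2(TPM + 1) with limma 3.58.1 in R 4.3.3 (1 mean per group, trended prior, two-sided, 12 residual degrees of freedom) and called at an adjusted p under 0.05. The fit was also run on simulated data with noise independent between libraries, unlike the shared deviations described below. That run is no support for the calls made here. A spike-in table with 24 columns whose names match no sample was not used.

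Named genes are Ythdf1, Ythdf2, Ythdf3, Tead2, the 14 called genes with the largest difference per direction (non-overlapping arms, 5 TPM or more in the higher arm, no clone or model name), called list members and abundant list members. Hmga2, Serpinh1 and members that passed with the block alone were chosen after their values were seen. The libraries, the 38 lists and the tests were chosen with earlier results of these data known.

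Replicate numbers were read as a pairing in the fits with the block alone. Libraries of the same number deviated together in every pair of groups (correlation 0.275 to 0.496, and 0.383 between the day 5 arms). The main fit had no replicate term, so its spread includes the shift between replicate numbers. Promoters are from RefSeq tables.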

Additional observations from a re-analysis of the deposited data

Results flagged for a closer look

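The difference between the arms at day 5 differed from that at day 7 for 1 gene, Gm16572, by an interaction term of -3.10 ± 0.38 (log2, SE, adjusted p = 0.0121, and 0.0317 with the replicate block). It was listed at 0 TPM in all libraries of days 3 and 5 and in shLuc and shYthdf3 at day 7, and at 5.93 and 9.63 TPM in the shYthdf2 libraries of day 7. The term thus comes from day 7.

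Spike-in rows, which the tests leave out, took 1.434% of TPM in shYthdf3 replicate 1 and 1.221% in shYthdf3 replicate 2 at day 5, above the 0.693% and 0.929% of shLuc. Over the 24 time course libraries the share ran from 0.538% to 2.14%.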

How the results depend on the processing

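The count of 117 genes at day 5 became 62 with a pseudocount of 0.1 (29 higher in shYthdf2, 33 higher in shYthdf3), 464 with the replicate block, 1 with the 4 day 5 libraries alone (none of the 117), 2 with those 4 and the block, 3 with spike-in scaling, 649 with spike-in scaling and the block, and 29 to 60 with 1 library left out. It was 124 to 142 with median-ratio scaling, no filter or no trend of the spread. Spike-in scaling was added after seeing the data. For day 5 against day 7 the count of 1 became 2 with a pseudocount of 0.1, 20 with no filter and 0 to 5 with 1 library left out, and the block left it at 1. For day 5 against day 3 the count of 0 became 9 with no filter and 0 to 2 with 1 library left out. The causes were not tested. Of the 72 genes followed, 25 gained a call with replicate number as a block. Members that passed with the block alone were among those picked to be followed, so this count depends on the choice of genes. No call was lost, since all 117 genes also passed with the block.

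Of the 35 called genes followed, 0 changed direction under the 13 settings run. Their arms did not overlap, so leaving out 1 library could not change a direction. The other settings reuse the same libraries, so this count is a description. A pseudocount of 0.1 ended 16 calls, among them Foxj1 (adjusted p = 0.267), Akr1c21 (0.110) and Grm2 (0.376). Among the others, spike-in scaling, with or without the block, turned Cdh1 to 0.657, Col1a1 and Klf4 to 0.0288 each and Sox2 to 0.163. With 1 library left out Cdh1 ran from -0.662 to 0.475 and Thy1 from -0.33 to 1.94. The peak overlap of 62.9% became 56.7% with 50% of the peak covered and 61.0% for peaks of 300 bases or more, and that of 80.2% became 77.1% and 85.9%. With 2 libraries per arm and no depth, low TPM cannot be told from 0.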
